A study of Amphimedon queenslandica with 124 samples.

Results

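The 120 gene models described here were expressed at every stage from the pigment cloud embryo to the free-swimming larva of the demosponge Amphimedon queenslandica, and lay lower at cleavage and at every stage from mat-formation to the adult. They were chosen by their own levels: counts were turned into log2(CPM + 1), where CPM is a count scaled to the same total in every library, and averaged over the individuals of a stage. The margin of a gene model is its lowest mean among cloud, spot, late spot, ring, late ring and free-swimming minus its highest mean among cleavage, mat-formation, chamber-formation, tent-pole-formation, juvenile and adult. Of 36868 gene models, 335 had a margin above 0, and the 120 with the largest margins are the members. Brown embryos, which lie between cleavage and cloud, and settled larvae, which lie between free-swimming and mat-formation, did not enter the choice.

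The study profiled 124 single individuals by CEL-seq, which tags RNA of each individual with a barcode and reads the 3' end of transcripts with a poly(A) tail. A stage was given for 123 of them: there were 3 adults, 5 juveniles, 6 individuals of the tent-pole and 3 of the chamber-formation stage, 34 at mat-formation, 10 at settlement and 13 larvae at the free-swimming stage, and the 7 embryo stages, cleavage and brown among them, had 7 individuals each. No treatment or genotype separates the groups, all individuals came from the reef at Heron Island, Australia, and each was staged by its form. The embryos are numbered in the labels, and the choice of members used the libraries numbered 1 to 100 up to the free-swimming stage and those numbered 101 to 124 from mat-formation on.

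Embryos of this sponge are brooded inside the mother. After irregular cleavage, cells sort into layers, and pigment cells gather at the posterior pole as a cloud, then a spot, then a ring. The pigment ring, bordered by long cilia, steers the larva away from light. The larva settles on its anterior end, flattens into a mat, and its cells reorganise into a water-pumping juvenile with choanocyte chambers, a tent-pole form and an osculum. Larval structures such as the ciliated outer layer and the pigment ring are lost in that change. The identifiers of the gene models could not be paired with gene names, so the members are described by identifier and level, and no function is given for any of them. In whole individuals, fewer cells of a type and less RNA per cell cannot be told apart.

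Depth was uneven, with totals from 1158 to 3059409 counts per library. The 25 mat-formation libraries numbered 1 to 100 held 1158 to 235043 counts, and the 7 settlement libraries of that set held 17429 to 300386, against 1274507 to 1598006 in the 3 settlement libraries numbered 101 to 124. Several libraries stood apart from their label in overall profile, measured as the Spearman correlation with the mean profile of each group over 5117 expressed gene models, members included. The library labelled brown replicate 3 was most like the cloud embryos, and 6 of the 7 settlement libraries numbered 1 to 100 were most like a mat-formation group. Of the 25 mat-formation libraries numbered 1 to 100, 3 were most like an embryo stage: replicate 14 (55958 counts) was most like cloud, replicate 15 (35622 counts) most like spot, and replicate 19 (1158 counts) most like late spot. The counts of calls and the median position of brown embryos are given also without brown replicate 3, and the counts of calls at mat-formation against brown embryos also without replicates 15 and 19 or all 3. Leaving out the 6 settlement libraries would leave 1, so results on settlement in this set rest on libraries most like mat-formation. Settlement replicates 2, 3 and 6 were most like mat-formation numbered 1 to 100, and replicates 4, 5 and 7 most like mat-formation numbered 101 to 124. Tent-pole replicates 1 and 2 and juvenile replicates 1 and 2 were also most like mat-formation numbered 1 to 100. Whether shared low depth sets this likeness was not tested.

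Together the 120 members made up a small share of the RNA outside the window and several percent within it. At cleavage they held 0.267% ± 0.0674 (SD, n = 7) of all counts, and in cloud embryos 4.61% ± 0.608 (n = 7). Their share was 7.12% ± 0.340 at spot, 8.07% ± 1.22 at late spot, 6.40% ± 0.494 at ring and 5.33% ± 1.17 at late ring (n = 7 each). Free-swimming larvae held 3.87% ± 0.341 (n = 13). These shares follow from the choice of the members and are a description without a test. The highest levels therefore fell in the middle of the window, around late spot, with lower shares at both ends.

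In the libraries numbered 101 to 124 the share was 0.372% ± 0.0897 (n = 9) at mat-formation, 0.353% ± 0.113 in adults, 0.420% ± 0.0305 in juveniles, 0.311% ± 0.0188 at tent-pole-formation and 0.333% ± 0.0257 at chamber-formation (n = 3 each). The range over these libraries and the cleavage embryos, 28 in all, ended at 0.488%, far under the lowest library of the window at 3.30%. The window and the late stages come from different sets of numbered libraries, so stage and number set cannot be told apart in that contrast. Most members were low rather than absent: 1 member had no count in the cleavage embryos, 6 had none at chamber-formation, 6 at tent-pole-formation, 3 in juveniles and 7 in adults. A count of 0 allows up to 0.576 CPM over the pooled cleavage embryos and up to 0.832 CPM over the pooled tent-pole libraries (3 counts of the pooled total, counting error only).

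**Figure D1:**
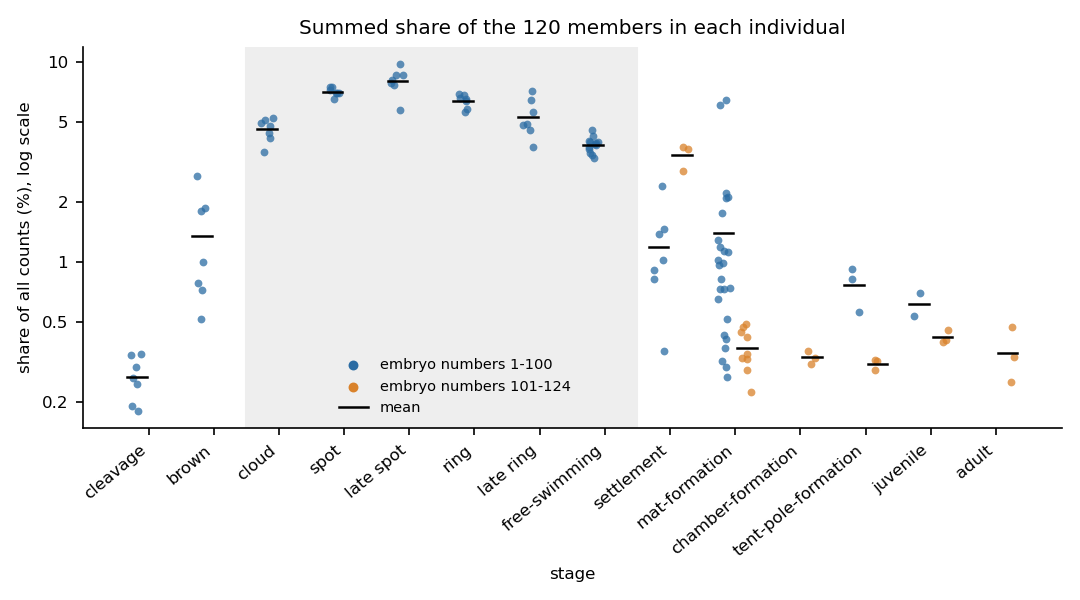
Share of all counts held by the 120 members (%, log scale) in each individual, by stage. Points are individuals, blue for embryo numbers 1 to 100 and orange for 101 to 124, and black lines are group means. The grey band marks the stages required to be high. Its libraries sit between 3.30% and 9.77%, while brown and settlement, which the choice did not use, lie between 0.360% and 3.77%.

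Libraries of the late stages numbered 1 to 100 were not used in the choice and carry the same stage labels, though several stood apart from their label in overall profile. Of 30 such libraries at mat-formation, tent-pole-formation and juvenile, 28 had a share under the lowest library of the window. The other 2 were mat-formation replicates 15 and 19, at 6.12% and 6.48%. The mean over all mat-formation libraries of this set was 1.39% ± 1.58 (SD, n = 25) and the median 0.964%. Without replicates 15 and 19 the mean was 0.964% ± 0.592 (n = 23) and the highest library 2.21%.

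Single members in these shallow libraries were also set against their levels in the window. Pooled over the 25 mat-formation libraries, 113 of the 120 members lay below their own lowest pooled stage of the window, and 112 did so without replicates 15 and 19. The same held for 106 members in the 3 tent-pole libraries and for 107 in the 2 juvenile libraries. The window means entered the choice, and no such count was made over all gene models, so these counts are a description. However, 40 members had no count in these tent-pole libraries and 54 had none in these juveniles. A count of 0 there allows up to 40.3 and 50.4 CPM (3 counts of the pooled total). For members at a low level in the window, a drop in these 2 groups cannot be told from missing depth. The shallow libraries were not as low as the deep ones, however. Of the 30, 24 had a share above 0.488%, the highest of the 28 libraries of the choice. The 3 tent-pole libraries averaged 0.771% ± 0.188 and the 2 juveniles stood at 0.539% and 0.698%. Whether depth plays a part in this was not tested.

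Two-sided tests between stages used edgeR's quasi-likelihood test with Benjamini-Hochberg adjustment over all gene models that passed its filter on low counts, and an adjusted p under 0.05 counted as called. Members that fail this filter have no test and are not counted, so the counts below are of members tested, not of all 120. Each p-value sets a difference against the spread between individuals of the stages compared.

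Members varied widely in level and in the shape of their profile within the window. The mean over the individuals of the 6 stages ran from 12.2 to 3212 CPM among members, with a median of 250.04 CPM. At the upper end 18 members exceeded 1000 CPM, and the 10 most abundant held 38.4% of the members' summed level, while 28 stayed under 100 CPM. The margin ran from 0.90 to 4.64 on the log2 scale, with a median of 1.56. The last member, Aqu2.1.23642_001, had a margin of 0.90 between a mean log2(CPM + 1) of 9.46 in free-swimming larvae and 8.56 at tent-pole-formation. The next gene model outside, Aqu2.1.28477_001, had a margin of 0.89 between 6.24 at late ring and 5.35 at tent-pole-formation. Nothing marks a gap between inside and outside.

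The word plateau describes the rule better than the profiles. The difference between a member's highest and lowest mean over the 6 stages had a median of 1.82 on the log2 scale and ran from 0.30 to 6.75. The highest mean fell at late spot in 34 members, at spot in 26, at ring in 25, at the free-swimming stage in 14, at cloud in 11 and at late ring in 10. The lowest mean of the window was at the free-swimming stage in 62 members and at cloud in 31. Late ring was the lowest stage in 12 members, ring in 8, spot in 4 and late spot in 3. The spot, late spot and ring stages thus held the highest mean of most members, and the swimming larva the lowest of about as many as all other stages together.

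Among the stages outside the window, the highest mean was in juveniles for 38 members, at mat-formation for 36 and at cleavage for 19. Adults gave it for 11 members, chamber-formation for 10 and tent-pole-formation for 6. No single stage thus set the level outside the window for most members.

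**Figure D2:**
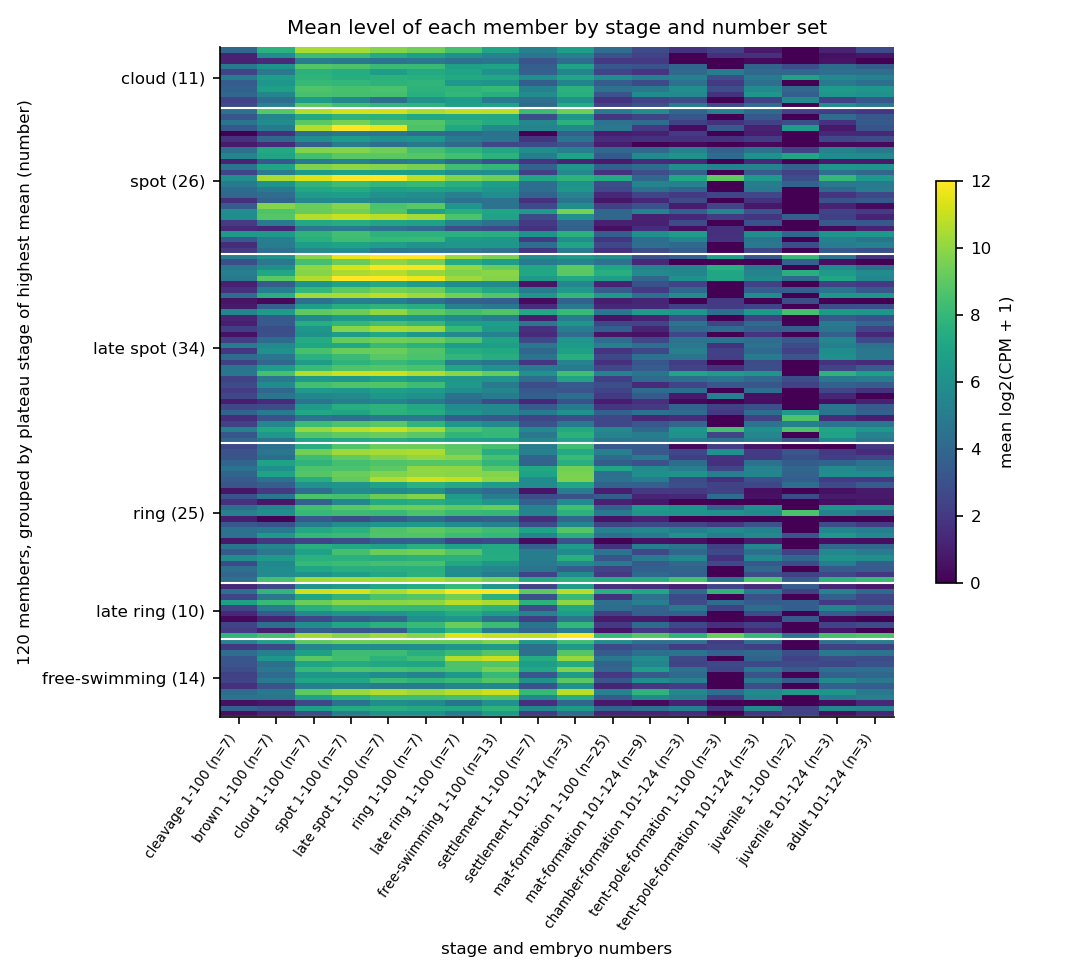
Mean log2(CPM + 1) of each of the 120 members (lines) at each stage and number set (columns, with the number of individuals), grouped by the stage of the window with the highest mean. The bands show 34 members highest at late spot, 26 at spot and 25 at ring. In brown embryos 58 members lay between their highest other mean and their lowest window mean, and 47 at or below the former. At settlement numbered 101 to 124, 55 lay between and 57 at or above the lowest window mean. At settlement numbered 1 to 100, 45 lay between and 70 at or below the highest other mean.

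The largest margin, 4.64, belonged to Aqu2.1.29054_001. In cleavage embryos this gene model stood at 6.12 to 55.1 CPM with a median of 23.3 CPM (n = 7), and in brown embryos at 85.7 to 1147 CPM with a median of 655 CPM (n = 7). Its means were 1735 CPM ± 676 at cloud, 2396 ± 633 at spot, 2400 ± 688 at late spot, 1500 ± 396 at ring and 2048 ± 1042 at late ring (SD, n = 7 each), and 1858 ± 440 CPM in free-swimming larvae (n = 13). Every brown embryo lay above every cleavage embryo, and the 6 stages of the window overlapped each other.

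After the window, Aqu2.1.29054_001 stood at 607, 652 and 673 CPM in the 3 settlement libraries numbered 101 to 124. Mat-formation individuals of that set had 33.7 to 145 CPM with a median of 48.3 CPM (n = 9). The 3 adults had 2.19, 4.71 and 1.84 CPM. The deep libraries thus lay lower at mat-formation than at settlement and lower again in adults, with no overlap between settlement and mat-formation. The 7 settlement libraries numbered 1 to 100 ran from 123 to 878 CPM with a median of 265 CPM and overlapped the deep ones. The gene model was 4.37 ± 0.61 (SE) higher on the log2 scale in brown than in cleavage embryos (edgeR adjusted p = 7.81e-05), 1.72 ± 0.43 higher in cloud than in brown (adjusted p = 0.00873), and 3.47 ± 0.41 lower at mat-formation than at settlement in the deep libraries (adjusted p = 4.19e-05). Cleavage, cloud and this mat-formation group were used to choose the member, so these values are a description.

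The second largest margin, 4.63, belonged to Aqu2.1.23426_001, a member of much lower level. Its cleavage embryos held 0 to 8.47 CPM with a median of 1.22 CPM, and its mean was 77.0 CPM ± 33.6 at cloud and 298 CPM ± 133 at late ring (SD, n = 7 each). Free-swimming larvae stood at 83.3 CPM ± 32.0 (n = 13). In brown embryos it ran from 0 to 80.1 CPM, and 3 of the 7 had no count. Its level at settlement differed between the number sets: 76.1, 176 and 71.6 CPM in the deep libraries against 0 to 57.4 CPM with a median of 4.14 CPM in the 7 numbered 1 to 100. The sets did not overlap, but the 57.4 CPM is 1 count in settlement replicate 2, a library of 17429 counts. At that depth the lack of overlap says little about that library. For this gene model edgeR gave 3.53 ± 1.00 (SE) on the log2 scale with an adjusted p of 0.0244. It was not called with the library total as a covariate, in libraries of at least 100000 counts, or without any 1 of the 3 deep settlement libraries (adjusted p from 0.0680 to 0.352).

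The most abundant member over the window was Aqu2.1.23699_001, at a mean of 3212 CPM. Cleavage embryos held 4.84 to 79.9 CPM with a median of 16.2 CPM, and brown embryos 50.4 to 942 CPM with a median of 169 CPM. Late ring embryos ran from 2493 to 6036 CPM with a median of 4847 CPM, and larvae from 1283 to 7792 CPM with a median of 4275 CPM. Its late spot embryos, at 749 to 3049 CPM, were its lowest of the window. This member therefore peaked at the end of the window, not in its middle.

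The next in abundance, Aqu2.1.31010_001, had the opposite shape. Late spot embryos ran from 2855 to 9328 CPM with a median of 5204 CPM, while late ring embryos held 505 to 3048 CPM with a median of 1057 CPM. Larvae held 400.5 to 1480 CPM with a median of 956 CPM, so no larva reached the lowest late spot embryo. Free-swimming larvae were 0.89 ± 0.30 (SE) lower on the log2 scale than cloud embryos (edgeR adjusted p = 0.0157), whereas Aqu2.1.23699_001 was 0.84 ± 0.33 higher (adjusted p = 0.0388). Both stages entered the choice, so these values are a description.

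**Figure D3:**
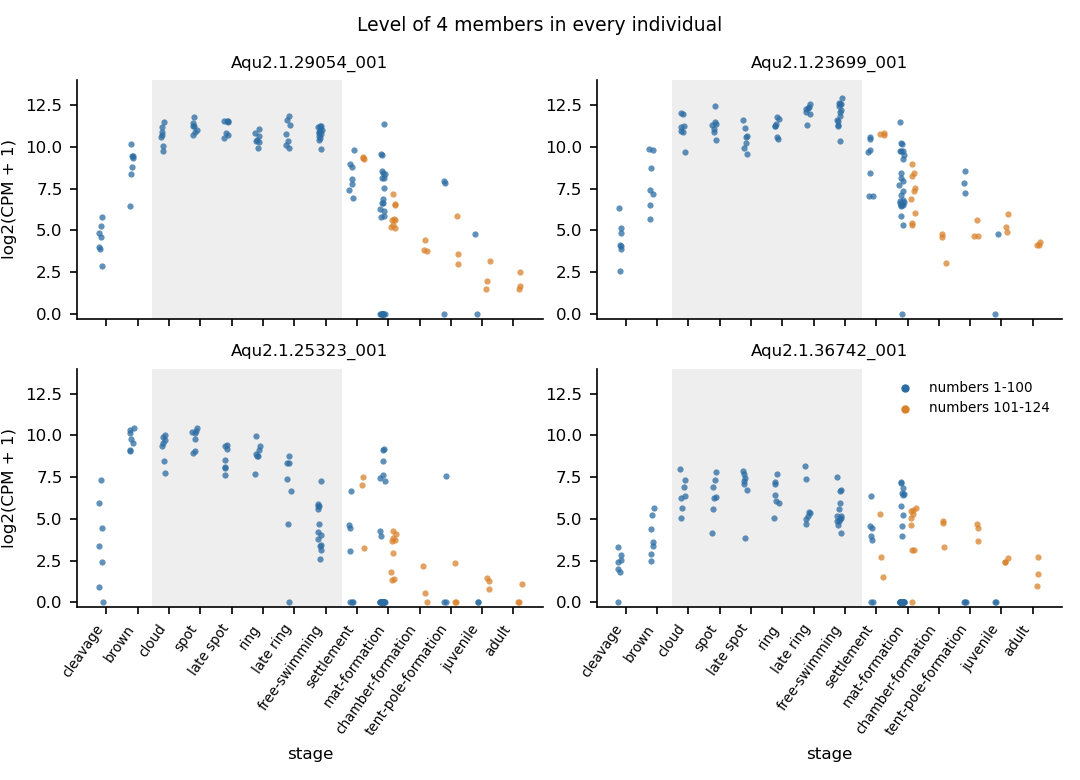
Level, as log2(CPM + 1), of 4 members in every individual, by stage, blue for embryo numbers 1 to 100 and orange for 101 to 124, with the stages required to be high in grey. Aqu2.1.29054_001 and Aqu2.1.23699_001 are high through the larva and lie lower from settlement on, Aqu2.1.25323_001 is already at its full level in brown embryos and low in most larvae, and Aqu2.1.36742_001 is at 1.88 to 37.5 CPM in the 3 deep settlement libraries. Points at 0 in blue at late stages are shallow libraries with no count.

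The ends of the window were compared with each other over all gene models. Between free-swimming larvae (n = 13) and cloud embryos (n = 7), 118 members were tested, of which 25 (21.2%) were higher in the larva and 46 (39.0%) lower. Over the 5667 gene models tested, 21.4% were called higher and 23.1% lower. Both stages entered the choice, so nothing is read from these shares beyond the spread within the window. The median log2 fold change was -0.40 in the members tested and 0.00 in all. Means of log2(CPM + 1) were higher in the larva in 42 of the 120 members, and the difference ran from -4.86 to 3.67.

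Single members show how far apart the ends can lie. Aqu2.1.25323_001 stood at 215 to 1022 CPM with a median of 758 CPM in cloud embryos and at 5.09 to 156 CPM with a median of 17.1 CPM in larvae. No larva reached the lowest cloud embryo, and the larvae were 4.24 ± 0.49 (SE) lower on the log2 scale (edgeR adjusted p = 7.11e-08). Aqu2.1.13440_001 went the other way, from 4.81 to 17.6 CPM with a median of 11.7 CPM in cloud embryos to 22.7 to 206 CPM with a median of 103 CPM in larvae. These groups did not overlap either, and the larvae were 2.99 ± 0.44 higher (adjusted p = 3.48e-06). Both stages entered the choice, and both members were named for extremes of their brown position, so these values are a description.

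Individuals of 1 stage differed as well. The median over members of the SD of log2(CPM + 1) between individuals was 0.50 at spot and 0.56 at ring, against 1.08 at late ring and 1.24 in brown embryos. In late ring the library of replicate 7 was the lowest of the 7 in 79 of the 120 members, and its share was 3.75%, the lowest of its stage. Its overall profile was most like the free-swimming larvae. Replicate 2 was the highest in 41 members, its share was 7.15%, and its profile was most like ring. The level of the members and the overall profile thus stood apart in the same late ring embryos.

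Brown embryos show when the members came on. Their share of all counts was 1.34% ± 0.798 (SD, n = 7), between the 0.267% of cleavage and the 4.61% of cloud embryos. On a scale of mean log2(CPM + 1) where cleavage is 0 and cloud is 1, the median member lay at 0.416 in brown embryos (quartiles 0.253 and 0.555, range -0.739 to 1.09). On this scale 28 members lay under 0.25, 87 from 0.25 to 0.75, and 5 over 0.75. The brown mean was below the lowest mean of the window in 105 members and above the highest mean of the other chosen stages in 73. By pooled CPM the median position was 0.465, and without brown replicate 3 it was 0.371.

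The brown embryos did not share 1 intermediate level. The members' share was 0.782%, 1.87%, 2.70%, 0.519%, 0.729%, 1.81% and 1.00% in replicates 1 to 7. The median position of the members was 0.679, 0.785 and 0.670 in replicates 2, 3 and 6, and 0.285, 0.184, 0.243 and 0.262 in replicates 1, 4, 5 and 7. Replicates 2, 3 and 6 lay above the group median in 105, 108 and 94 of the 120 members, and the other 4 in 6 to 20. The 3 higher embryos were thus higher across most members, and the mean of the stage lies between the 3 and the 4. Replicate 3, with the profile most like cloud, was the highest of the 7 in 72 members.

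**Figure D4:**
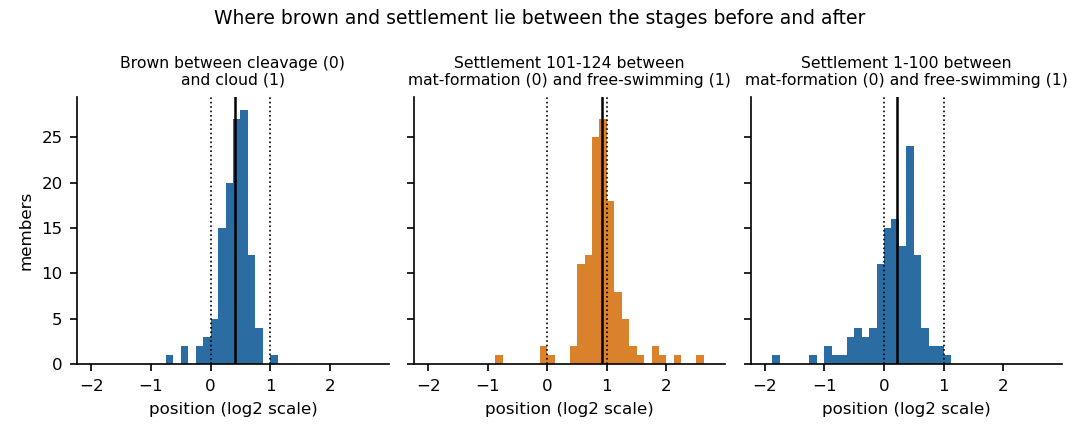
Number of members by position of brown embryos between cleavage (0) and cloud (1), and of settlement individuals of each number set between mat-formation (0) and free-swimming (1), on mean log2(CPM + 1). Solid lines are medians, at 0.416 for brown, 0.910 for settlement numbered 101 to 124 and 0.226 for settlement numbered 1 to 100.

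Both steps of the onset were tested. Between brown and cleavage embryos (7 against 7), 87 members were tested, 43 were higher in brown and 0 lower. Of the 6173 gene models tested, 11.2% were called higher and 11% lower. The median log2 fold change was 1.80 in these members and 0.13 in all. Without brown replicate 3 the count was 31 of 85 (36.5%), where 8.51% of all gene models were called higher. Between cloud and brown embryos (7 against 7), 113 members were tested, 98 were higher in cloud and 0 lower. Of the 6363 gene models tested, 13.1% were called higher and 13.5% lower. The median was 2.15 in these members and -0.08 in all. With brown replicate 3 left out the count was 111 of 115 (96.5%), where 15.3% of all were called higher. Cleavage and cloud fixed the direction of the whole span, so these counts are a description. DESeq2 gave no member lower in either step, with 52 of 87 and 107 of 113 higher. Of all gene models it called 15.1% and 16.2% higher, and 12.9% and 16.2% lower.

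Members differed in which step carried the change. The members named for this were picked for the extremes of their brown position in the same embryos. Cleavage and cloud also entered the choice, so the fold changes and p-values of these steps are a description. At the early end, Aqu2.1.25323_001 had the highest brown position, 1.09. It stood at 539 to 1391 CPM with a median of 882 CPM in brown embryos, against 0 to 160 CPM with a median of 9.22 CPM at cleavage. No cleavage embryo overlapped a brown one, while brown and cloud embryos overlapped. The step from cleavage to brown was 4.63 ± 0.77 (SE) on the log2 scale (edgeR adjusted p = 2.99e-04) and that from brown to cloud -0.32 ± 0.34 (adjusted p = 0.511).

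Aqu2.1.34620_001 was next, at a position of 0.852, and its values are likewise a description. Its brown embryos ran from 37.5 to 76.2 CPM and its cloud embryos from 50.0 to 100.02 CPM. The 2 stages overlapped, and the difference from brown to cloud was 0.47 ± 0.26 (SE) on the log2 scale (edgeR adjusted p = 0.176). This member is ranked 119 by margin, next to the last.

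At the late end, Aqu2.1.28458_001 had a brown position of -0.74, since its brown embryos were lower in mean than its cleavage embryos. It had 12 counts in all brown embryos together and none in 4 of the 7, and ran from 0 to 14.0 CPM at cleavage. Cloud embryos held 1.86 to 23.5 CPM, and cloud was 2.86 ± 0.91 (SE) higher than brown on the log2 scale (edgeR adjusted p = 0.0286). That difference is again a description of a member picked for its position. Late ring embryos held 16.2 to 806 CPM with a median of 482 CPM.

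Aqu2.1.13440_001, at a position of -0.487, had 11 counts in all brown embryos together and none in 4 of the 7. Its embryos ran from 14.4 to 88.5 CPM at spot and from 94.6 to 306 CPM at ring. These members were thus detected at a few counts or not at all in brown embryos and reached their highest means at ring or late ring.

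Settled larvae show how the members went down, and here the number sets differ. In the 3 deep libraries the share was 2.87%, 3.77% and 3.70%, with a mean of 3.44% ± 0.503 (SD), overlapping the 3.30% to 4.58% of the 13 free-swimming larvae. In the 7 libraries numbered 1 to 100 it was 2.41%, 1.38%, 1.46%, 0.911%, 1.02%, 0.827% and 0.360% in replicates 1 to 7, all below every larva. On a scale where mat-formation of the deep libraries is 0 and free-swimming is 1, the median member lay at 0.910 in the deep settlement libraries and at 0.226 in the others. The deep libraries had 91 members over 0.75 and 4 under 0.25, and the others 5 over 0.75 and 62 under 0.25.

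Mean log2(CPM + 1) was higher in the deep settlement set in 116 of the 120 members, and pooled CPM in 106. No such count was made over all gene models, so these counts are a description. Expressed gene models as a whole also stood higher in the deep set, with a median of mean log2(CPM + 1) of 5.72 against 4.51. What part this offset has in the counts and positions of the members was not tested. A member's mean was above its highest mean of the other chosen stages in 112 members in the deep set and in 50 in the other. By pooled CPM, which gives shallow libraries less weight, the median position was 0.876 in the deep set and 0.441 in the other. The median over members of each individual was 0.794, 0.975 and 0.927 in the deep set. In the other it was 0.706, 0.293, 0.653, 0.264, 0.323, 0.297 and -0.263 in replicates 1 to 7. Replicate 7, the deepest library numbered 1 to 100 at settlement with 300386 counts, was thus also the one with the lowest members.

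A direct test between the settlement sets (3 against 7), added after the data were seen, used no library of the choice. Of 89 members tested, 9 (10.1%) were higher in the deep set and 0 lower. Of the 4332 gene models tested, 2.08% were called higher and 9.4% lower. The median log2 fold change was 1.30 in these members and 0.06 in all. With the library total as a covariate, with only libraries of at least 100000 counts, or without settlement replicate 10, no member was called. In these 3 settings 10 of 89, 21 of 91 and 17 of 93 members tested had an unadjusted p under 0.05. Over all gene models tested, 526 of 4332, 572 of 3719 and 950 of 5226 did, in either direction. Without replicate 8, 2 members were called, and without replicate 9, 1 member was called. Depth and the number set coincide here, and their parts cannot be separated.

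The end of the window was tested within each number set. Between settlement and free-swimming in the libraries numbered 1 to 100 (7 against 13), 102 members were tested, 58 were lower at settlement and 0 higher. Of the 3581 gene models tested, 15.0% were called lower and 12.3% higher. The median log2 fold change was -1.52 in these members and -0.11 in all. Between mat-formation and settlement in the deep libraries (9 against 3), 110 members were tested, 103 were lower at mat-formation and 0 higher. Of the 8599 gene models tested, 10.6% were called lower and 8.5% higher. The median was -3.29 in these members and 0.07 in all. Free-swimming and the deep mat-formation libraries entered the choice, and both counts are a description.

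**Figure D5:**
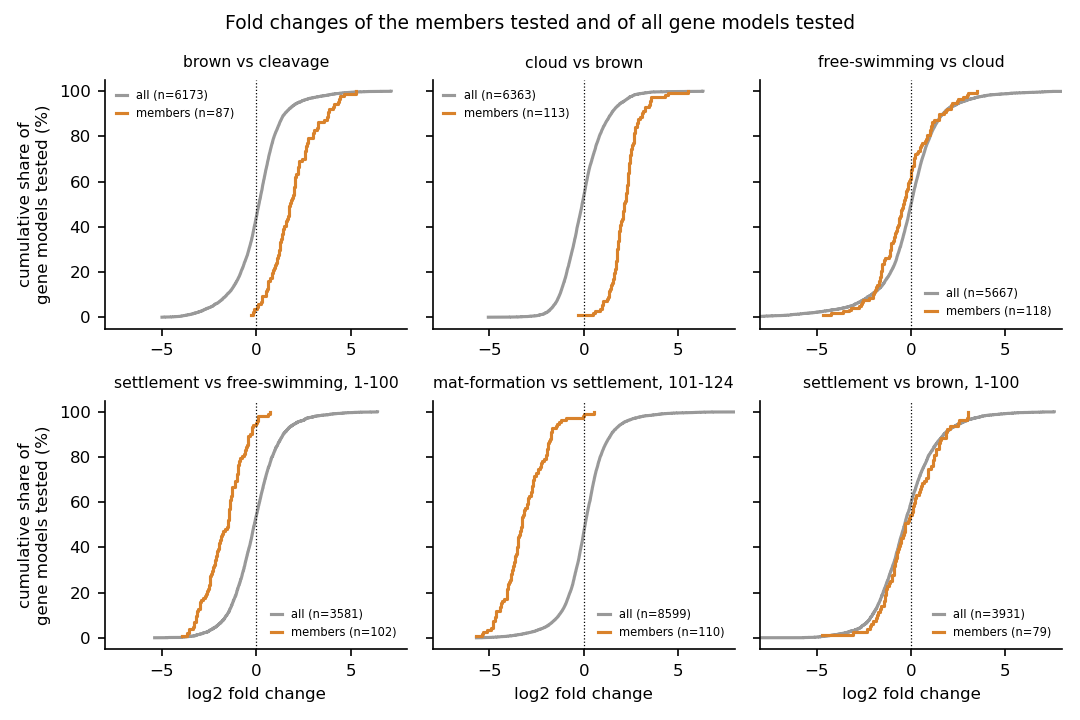
Cumulative share (%) of log2 fold changes (edgeR) for all gene models tested (grey) and for the members tested (orange) in 6 comparisons. The members lie to the right at brown against cleavage and at cloud against brown (medians 1.80 and 2.15), and to the left at settlement against free-swimming and at mat-formation against settlement (medians -1.52 and -3.29). At settlement against brown, which did not enter the choice, the medians are -0.31 in the 79 members that passed the filter on low counts and -0.34 in all gene models tested; without that filter they are -0.99 and 0.46.

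Brown and settlement, the stages on either side of the window, were compared in the libraries numbered 1 to 100, none of which was used in the choice. Of 79 members tested, 8 (10.1%) were higher at settlement and 7 (8.86%) lower. Over the 3931 gene models tested, 12.0% were called higher and 17.5% lower, so these members' shares were no larger than those of all gene models tested. The median log2 fold change was -0.31 in these members and -0.34 in all. With the library total as a covariate, 1 member (1.27%) was called in each direction, where 4.15% of all were called higher and 1.09% lower.

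The balance of the directions depended on the setting. Without the filter on low counts all 120 members were tested, 6 (5.00%) were higher and 35 (29.2%) lower, where 19.4% of 25925 gene models were called higher and 7.94% lower. The median was then -0.99 in the members and 0.46 in all. DESeq2 called 10 members (12.7%) higher and 15 (19%) lower of 79, where 14.3% of all gene models were called higher and 28.1% lower. Without brown replicate 3 the counts were 9 (13.2%) higher and 4 (5.88%) lower of 68, where 13.6% and 15.3% of all were called. The medians were then 0.10 in these members and -0.27 in all.

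Single members differed by several log2 units. Aqu2.1.31487_001 stood at 112 to 948 CPM with a median of 466 CPM in brown embryos and at 546 to 9912 CPM with a median of 1434 CPM at settlement. The ranges overlapped, and settlement was 3.00 ± 0.70 (SE) higher on the log2 scale (edgeR adjusted p = 0.00222). It was called under every alternative run. Aqu2.1.22410_001 stood at 3.96 to 130 CPM with a median of 24.0 CPM in brown embryos and at 89.2 to 676 CPM with a median of 287 CPM at settlement. It was 3.00 ± 0.71 higher (adjusted p = 0.00246), and 2 of the embryos lay above the lowest settled larva. With the library total as a covariate it was not called (adjusted p = 0.0663).

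Aqu2.1.25323_001 and Aqu2.1.27201_001 were lower at settlement. The former stood at 0 to 99.4 CPM at settlement with a median of 7.43 CPM, under every brown embryo, and was 4.71 ± 0.76 (SE) lower on the log2 scale (edgeR adjusted p = 5.42e-05). The latter stood at 552 to 2975 CPM with a median of 1375 CPM in brown embryos and at 13.3 to 298 CPM with a median of 226 CPM at settlement. It was 3.08 ± 0.60 lower (adjusted p = 4.14e-04), with no overlap. With the library total as a covariate neither was called, at adjusted p = 0.276 and 0.0666.

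Mat-formation was compared with brown embryos in the same number set (25 against 7). Only 879 gene models passed the filter at these depths. Of 21 members tested, 3 were higher at mat-formation, where 21.3% of all were called higher, and 4 were lower, where 25.5% were called lower. Without mat-formation replicates 15 and 19 the counts were 0 higher and 4 (18.2%) lower of 22, where 21.7% of all gene models were called higher and 26.4% lower. The 3 higher calls were lost without these 2 libraries. Without replicates 14, 15 and 19 the counts were 1 (5.56%) higher and 5 (27.8%) lower of 18. Of all gene models, 25.7% were then called higher and 24.4% lower. Without brown replicate 3 they were 5 (23.8%) higher and 2 (9.52%) lower of 21, where 24.5% and 20.2% of all were called. With the library total as a covariate no member was called, where 13.1% of all were called higher and 0.683% lower. There, 2 of 21 members had an unadjusted p under 0.05, against 219 of 879 gene models.

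In libraries of at least 100000 counts, which leave 3 mat-formation libraries, 103 members were tested, 0 were higher and 25 (24.3%) lower. Of the 6999 gene models tested there, 4.87% were called higher and 6.76% lower. The median log2 fold change was -2.30 in these members and -0.47 in all.

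Aqu2.1.29889_001 and Aqu2.1.22326_001 were 2 of those 3. The former ran from 0 to 1263 CPM with a median of 83.2 CPM over the 25 mat-formation libraries, against 5.69 to 102 CPM with a median of 24.0 CPM in brown embryos (2.65 ± 0.90 on the log2 scale, SE, edgeR adjusted p = 0.0152). The latter ran from 0 to 6045 CPM with a median of 97.1 CPM, against 23.3 to 278 CPM with a median of 55.4 CPM (2.46 ± 0.97, adjusted p = 0.0338). In the deep mat-formation libraries they stood at 2.10 to 19.4 CPM and 3.36 to 8.78 CPM.

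Of the members lower at mat-formation than in brown embryos, Aqu2.1.25323_001 was 3.52 ± 0.72 (SE) lower on the log2 scale (edgeR adjusted p = 1.78e-04), with no count in 17 of the 25 libraries. Aqu2.1.27315_001 was 2.18 ± 0.62 lower (adjusted p = 0.00457), with 0 to 393 CPM and a median of 24.5 CPM against 162 to 885 CPM and a median of 397 CPM in brown embryos. Neither was called with the library total as a covariate, at adjusted p = 0.0565 and 0.123.

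Between mat-formation and settlement in this set (25 against 7), 692 gene models could be tested. Among 20 members 0 were higher, where 0% of all gene models were called higher, and 1 was lower, where 1.45% were called lower. The count of 0 higher among all gene models stands beside 84 gene models with an unadjusted p under 0.05 in either direction, and DESeq2 called 9 higher and 19 lower.

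The member that was lower was Aqu2.1.31487_001, whose level in the deep settlement libraries lay above that of larvae. In larvae it stood at 1287 to 3054 CPM with a median of 1981 CPM, and in the 3 deep settlement libraries at 10231, 11260 and 10895 CPM. All 3 lay above every larva, and the mean was 10795 CPM ± 521 (SD). Deep mat-formation libraries held 250.2 to 803 CPM with a median of 477 CPM. In the deep set mat-formation was 4.66 ± 0.34 (SE) lower than settlement on the log2 scale (edgeR adjusted p = 1.89e-06). Deep mat-formation entered the choice, and this member was also named for its deep settlement position, so that value is a description. In the other set, which the choice did not use, mat-formation was 2.40 ± 0.52 lower (adjusted p = 0.00709). The latter was not called with the library total as a covariate (adjusted p = 0.286) or in libraries of at least 100000 counts (adjusted p = 0.386). Aqu2.1.31487_001 ranked 112 by margin, with a margin of 0.94 between its lowest window mean, 9.76 at spot, and its highest other mean, 8.83 at deep mat-formation, on the log2(CPM + 1) scale.

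Its settlement position of 2.17 was passed only by Aqu2.1.27315_001 among the 120 members, at 2.51. That gene model was also named for this extreme in the deep settlement libraries, so its values there are a description. This gene model stood at 3.49 to 626 CPM with a median of 177 CPM in larvae and at 518, 977 and 881 CPM in the deep settlement libraries. The ranges overlapped. The settlement libraries numbered 1 to 100 held 22.3 to 212 CPM with a median of 115 CPM, all below the deep ones, a difference of 2.88 ± 0.68 (SE) on the log2 scale (edgeR adjusted p = 0.0116). This call was lost with the library total as a covariate (adjusted p = 0.431), in libraries of at least 100000 counts (0.0974), without settlement replicate 9 (0.0603) and without settlement replicate 10 (0.0583). In all, 39 of the 120 members had a higher mean at settlement in the deep libraries than in larvae.

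At the other extreme, 4 members lay under a position of 0.25 in the deep settlement libraries. Aqu2.1.36742_001 had the lowest position, -0.820, with 5.49, 1.88 and 37.5 CPM in the deep settlement libraries and 0 to 49.0 CPM with a median of 32.0 CPM at deep mat-formation. Larvae held 17.0 to 182 CPM with a median of 34.2 CPM and overlapped both. The difference of mat-formation from settlement, 0.55 ± 0.96 (SE) on the log2 scale, did not pass the test (edgeR adjusted p = 0.738). Deep mat-formation entered the choice and the member was named for this position, so the value is a description.

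Aqu2.1.06058_001, at a position of -0.119, held 1.57, 1.25 and 1.36 CPM in the deep settlement libraries and 0 to 18.1 CPM with a median of 9.44 CPM in larvae. Those 3 values rest on 6 counts in total. All 3 lay below the larval median. Its cloud embryos held 10.3 to 92.5 CPM, and its larvae were 2.04 ± 0.43 (SE) lower than these on the log2 scale (edgeR adjusted p = 3.46e-04). Cloud and free-swimming entered the choice, so this value is a description.

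The positions in brown embryos and at settlement showed little relation over the members. Of the 5 members over 0.75 in brown embryos, 4 were also over 0.75 in the deep settlement libraries. Over the 120 members the Spearman correlation of the brown position with the settlement position of the deep set was -0.12, a description over gene models that share the same libraries.

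Some members have neighbouring identifiers. Numbers of 12 pairs of members differ by 5 or less, 22 members in all, and 3 pairs are consecutive: Aqu2.1.23223_001 with Aqu2.1.23224_001, Aqu2.1.29107_001 with Aqu2.1.29108_001, and Aqu2.1.30391_001 with Aqu2.1.30392_001. Pearson correlations of mean log2(CPM + 1) over the groups ran from 0.63 to 0.93 in the 12 pairs. All members share the profile they were chosen for, so these values are a description. Whether such identifiers are neighbours in the genome, or share reads as copies of 1 gene, was not tested.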

How the data were processed

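The deposited table holds counts, whole numbers per gene model and library that the authors did not normalize, from CEL-seq of single individuals. Bowtie2 2.1.0, HTSeq 0.5.4p3 and CASAVA 1.8 were used, per the submitters' processing notes. Not given in the sources used here are their settings, the build and annotation of the genome, and whether molecular identifiers were counted. The table was held in part: it ends within its last line, and 36868 complete gene models were used. There were 0 columns of other samples. The reference table of names matched 0 identifiers, so no names or sequences are given.

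Stages are the developmental stages in the labels. Replicates are numbered by embryo number inside each stage, and the numbers pair no individuals. The members, comparisons and named gene models were chosen with earlier results of these data known. Stage means are of log2(CPM + 1). Tests used edgeR 4.0.16 in R 4.3.3 (TMM scaling, filterByExpr, quasi-likelihood test, only the groups compared), checked on simulated counts. Standard errors come from the log2 fold change and its F statistic. DESeq2 1.42.0 was a second tool. Alternatives were DESeq2's size factors, no filter, the library total as a covariate, libraries of at least 100000 counts, a minimum log2 fold change of 1, and libraries left out. The leaving out of brown replicate 3 and of mat-formation replicates 15 and 19 or 14, 15 and 19, the pooled CPM and the test between settlement sets were added after the data were seen. Floors use 3 counts and cover counting error only. Named members are the first and last by margin, the next gene model outside, the highest in mean CPM, and the extremes of each position and of each comparison of libraries the choice did not use, at most 2 at each end. Python 3.11.15 was used with numpy 2.4.6, pandas 2.3.3 and matplotlib 3.10.9.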

Additional observations from a re-analysis of the deposited data

Results flagged for a closer look

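Single individuals lay far from the others of their group in 8 of 36 groups tested for the named gene models at brown and settlement, and in 0 of 9 groups tested for the members' share. Chance alone would mark about 1 group in 20 if values were normally distributed and the groups independent. Here the groups share libraries, and several gene models were named for their extremes at brown or settlement. The 8 of 36 is therefore not read against that rate. All 8 flags were high values. In brown embryos replicate 3 held 80.1 CPM of Aqu2.1.23426_001 and 1738 CPM of Aqu2.1.23642_001, and replicate 2 held 13.8 CPM of Aqu2.1.28458_001. In the settlement libraries numbered 1 to 100, replicate 1 held 9912 CPM of Aqu2.1.31487_001, close to the deep settlement libraries. Replicate 2, with 17429 counts in all, held 57.4 CPM of Aqu2.1.23426_001, which is 1 count at that depth, and 287 CPM of Aqu2.1.28458_001. Replicate 5 held 99.4 CPM of Aqu2.1.25323_001, and replicate 6 held 81.8 CPM of Aqu2.1.36742_001.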

How the results depend on the processing

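The positions stayed within the spread of individuals, and 101 to 120 of the 120 members were kept, under every alternative run for them. The counts that moved by over 1.5 times were as follows, and the cause was not tested. Members called, settlement against brown (higher): 1 with the library total as covariate and 4 in libraries of at least 100000 counts, while the lower count went from 7 to 35 unfiltered. Mat-formation against brown (lower): 33 unfiltered, 0 with the covariate, 25 in deeper libraries and 2 without brown replicate 3. Mat-formation against settlement, numbers 1 to 100 (lower): 0 with the covariate and 0 in deeper libraries. Brown against cleavage: 68 unfiltered. Settlement against free-swimming: 99 unfiltered and 36 with the covariate. Between settlement sets: 5 with DESeq2 size factors, 28 unfiltered, 0 with the covariate, 0 in deeper libraries, and 0 to 2 with 1 settlement library left out.

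Among all gene models, unfiltered calls were 7092 for settlement against brown, 10723 for mat-formation against brown, 487 for mat-formation against settlement, 3908 for free-swimming against cloud, 7079 for settlement against free-swimming and 1378 between settlement sets. With the covariate they were 206, 121, 0, 809 (brown against cleavage), 433 (settlement against free-swimming) and 18 (settlement sets). In deeper libraries they were 814 for mat-formation against brown, 0 for mat-formation against settlement and 17 between settlement sets. The DESeq2 test gave 28 for mat-formation against settlement and 830 between settlement sets. With 1 settlement library left out, calls between settlement sets ran from 82 to 146, and those of mat-formation against settlement in the deep set from 960 to 1326.

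Depth limits the late libraries numbered 1 to 100 most: 30 labelled libraries fell under 100000 counts, and only 20 members could be tested between mat-formation and settlement there. DESeq2 size factors moved the median log2 fold change of all gene models from -0.34 to -0.47 for settlement against brown, from -0.31 to -0.09 for mat-formation against brown and from 0.06 to -0.19 between settlement sets. For settlement against brown it was 0.46 unfiltered and 0.13 with the covariate, and the members' median changed sign without brown replicate 3. For mat-formation against brown the members' median went from -0.21 to 0.08 with the size factors, and calls among all gene models from 187 higher and 224 lower to 198 and 164, and to 115 and 6 with the covariate. The DESeq2 test moved the share of higher calls for mat-formation against brown from 45.5% to 58.4%. With it 6 of 21 members (28.6%) were called higher, where 27.6% of all gene models were. No paired analysis was possible because replicates were numbered by embryo number inside each stage, which pairs no individuals, except that the deep set repeats its order of stages in 3 runs of 8 numbers. A block for the 3 runs of 8 numbers left 102 of 110 members (92.7%) lower at mat-formation than at settlement, where 10% of all gene models were.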

Other observations

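The stage of 1 individual was not given in the labels. Its library held 23082 counts, of which the members made up 0.975%, and 67 of the 120 members had a count. Aqu2.1.31487_001 stood at 520 CPM (12 counts) and Aqu2.1.29054_001 had no count, where a count of 0 allows up to 129.97 CPM in this library.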
